A study of Arabidopsis thaliana with 12 samples.

Results

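The transcripts described here are those of the Arabidopsis chloroplast genome that encode subunits of the photosynthetic complexes, the large subunit of Rubisco and the plastid RNA polymerase. A gene was included when a probe set (the group of oligonucleotides that measures a transcript on the array) was annotated with that chloroplast gene and no other. Of 48 listed genes, 47 had such a probe set, out of 22746 probe sets on the array. They comprise 5 genes of photosystem I, 15 of photosystem II, 6 of the cytochrome b6f complex, 6 of the ATP synthase, 10 of the NAD(P)H dehydrogenase-like complex (NDH), rbcL and 4 genes of the plastid RNA polymerase. The probe set of ndhB was annotated with both copies of that gene, and it was not used.

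RNA came from whole seedlings of the Columbia (Col-0) ecotype, 12 days old, raised from sterilized seed on wetted glass fibre discs with 50 seeds to a dish. Seedlings with 500 mg per L of titania (TiO2) nanoparticles were compared with seedlings on 0.1 mM KCl, and seedlings with 500 mg per L of ceria (CeO2) nanoparticles with seedlings on sterilized purified water. There were 3 arrays in every group; TiO2 and KCl arrays are labelled as biological replicates, and CeO2 and water arrays as replicates without that word. Where no separate cultures are stated, a p-value covers the spread between these arrays, which may be technical. The labels do not say in which liquid the particles were suspended.

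As background, the chloroplast genome holds only part of the genes for each photosynthetic complex, and the nucleus holds the others. Many chloroplast genes lie next to each other and are transcribed together as operons. They are read by a plastid-encoded polymerase, built from the rpo gene products and directed by nuclear sigma factors, and by phage-type polymerases encoded in the nucleus. Much of their regulation in green tissue takes place after transcription, through processing, protection and decay of the RNA. Chloroplast mRNAs are not stably polyadenylated, whereas the standard array labelling primes cDNA at poly(A) tails. A value here therefore need not follow the total amount of a chloroplast RNA.

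The deposited values are on a log2 scale and come from RMA, a summary of the probes of each probe set after background correction and normalization of the arrays. Array medians ran between 5.69 and 5.74 log2 in TiO2 and KCl arrays and between 5.88 and 5.92 in CeO2 and water arrays. The lowest value was 2.45 in TiO2, 2.46 in KCl, 2.30 in CeO2 and 2.35 in water arrays. Arrays of a group correlated at 0.993 to 0.997 over all probe sets. Levels of different probe sets are not compared, since probes differ in their response. The chloroplast origin was taken from the annotation. The complexes were checked against the gene symbols alone. LHCB4.1, a nuclear light-harvesting gene of green tissue, was bright in every group, at 13.4 to 13.5 log2 in TiO2 arrays, 13.5 to 13.6 in KCl arrays, 13.2 to 13.3 in CeO2 arrays and 13.2 to 13.3 in water arrays. In whole seedlings, fewer cells of a type and less RNA per cell cannot be told apart.

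KCl replicate 3 stood apart in the chloroplast transcripts. It had the lowest of the 3 KCl values in 42 of the 47 genes (89.4%), against 40.5% of all probe sets, and lay a median of 1.12 log2 under the mean of the other KCl arrays. TiO2 replicate 3 was the lowest of its group in 37 genes (78.7%), against 32.0% of all probe sets, but by a smaller median of 0.44 log2. Results on TiO2 are therefore given with and without these arrays.

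**Figure D1:**
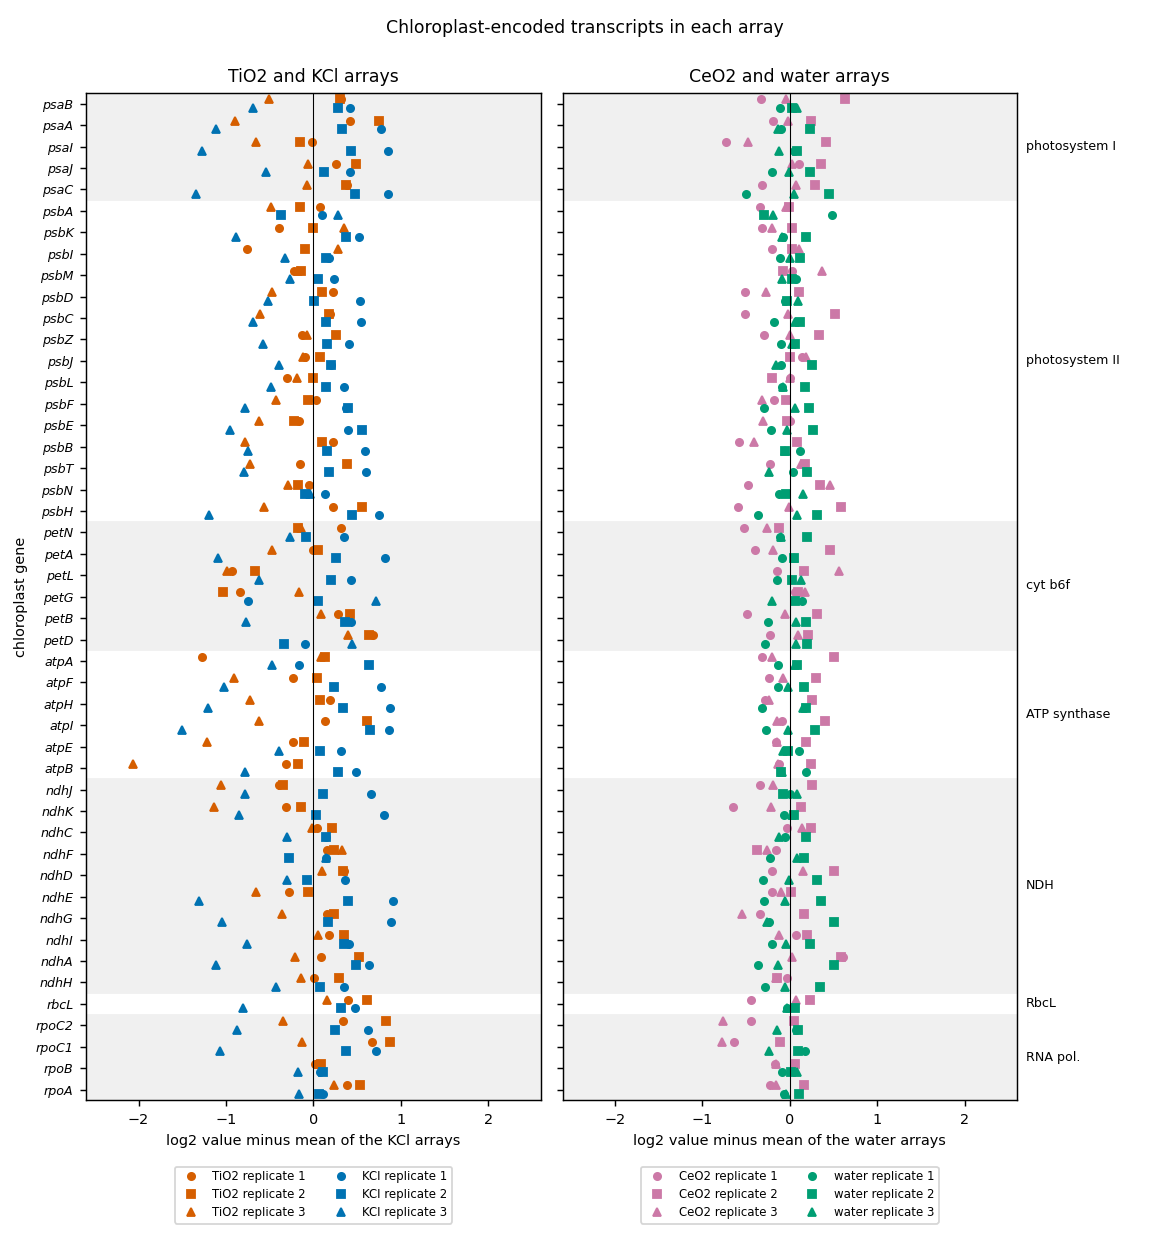
Value of each of the 47 chloroplast transcripts in each array, as log2 value minus the mean of the control arrays (KCl in the left panel, water in the right panel). Points are single arrays, and shapes give the replicate number. KCl replicate 3 (blue triangles) is the lowest KCl array in 42 of 47 genes.

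In TiO2 seedlings, petL was the 1 chloroplast transcript of these 47 that passed the test, and it was called lower. It stood for 2.13% of the genes, while 10.6% of all probe sets passed the same test (adjusted p under 0.05, in limma), 4.72% higher and 5.86% lower. The share of called chloroplast genes was thus not above that of the array. The estimates of the 47 genes had a median of −0.05 log2, against 0.02 for all probe sets, with 22 above and 25 below 0. By complex, the medians were 0.09 log2 for photosystem I, −0.15 for photosystem II, −0.07 for cytochrome b6f, −0.36 for the ATP synthase, 0.07 for NDH and 0.32 for the plastid polymerase. rbcL had an estimate of 0.39. When single arrays were left out, the median of the ATP synthase alone among the complexes kept its sign throughout.

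The precision was low for these genes. The median standard error (SE) of their TiO2 change was 0.268 log2, against 0.106 over all probe sets, and the median 95% interval reached 0.569 log2 to each side of the estimate. At an unadjusted p under 0.05, 7 of the 47 genes (14.9%) passed, against 23.0% of all probe sets. The TiO2 and KCl values did not overlap in 3 genes (6.38%), against 24.4% of all probe sets. rpoA and ndhF were higher (13.1% of all probe sets) and petL was lower (11.3%).

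**Figure D2:**
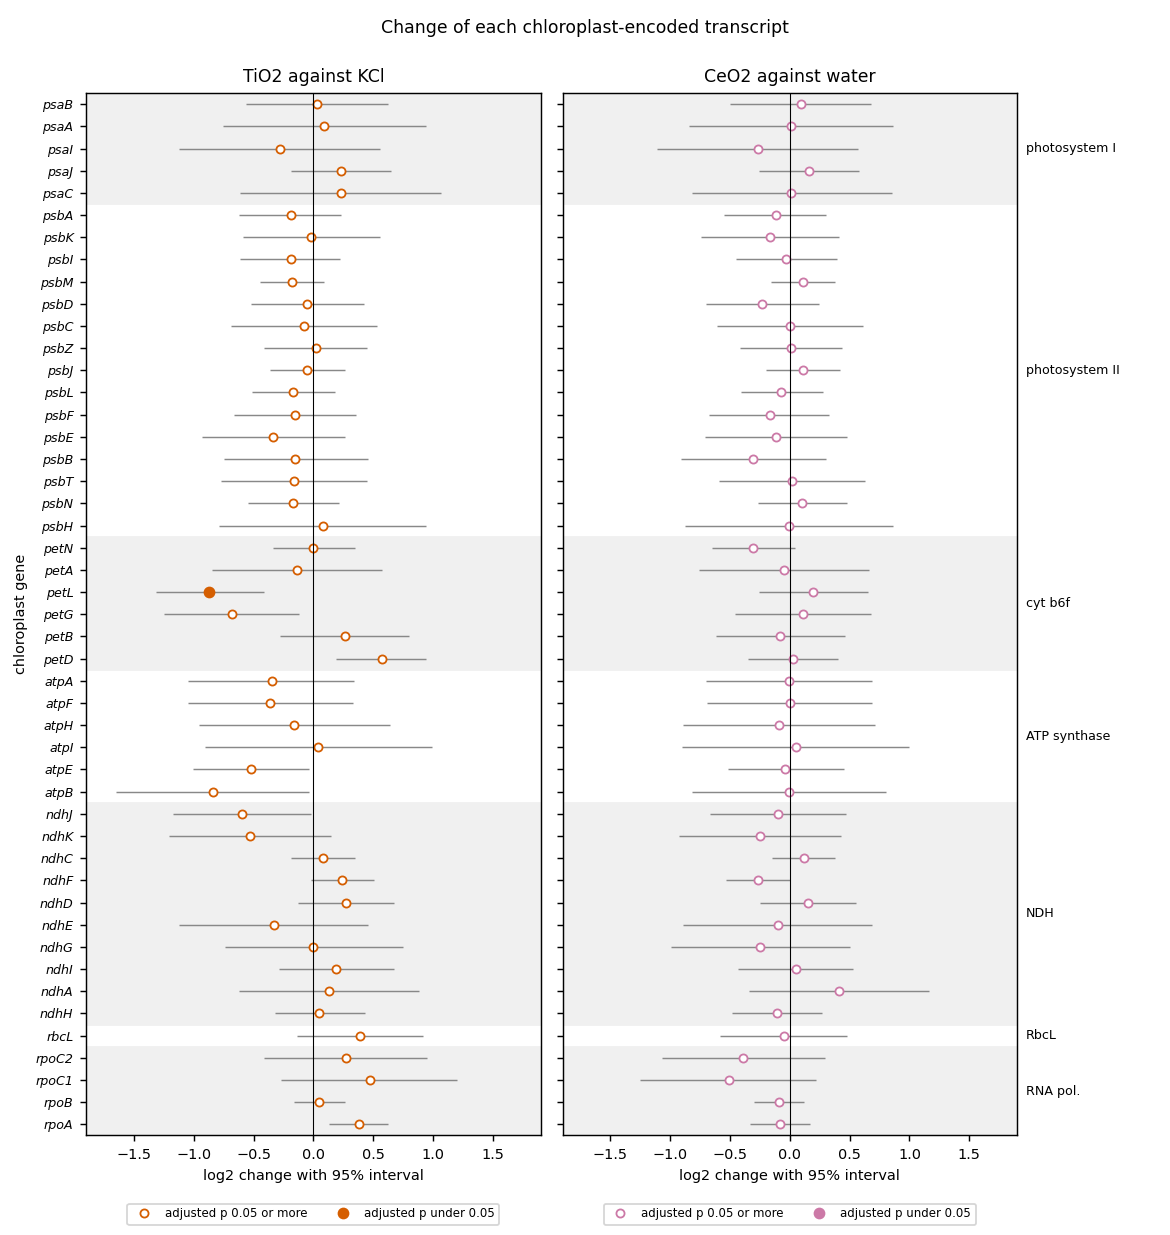
Log2 change of each chloroplast transcript in TiO2 against KCl seedlings and in CeO2 against water seedlings, with 95% intervals from limma (3 arrays in each group). Only petL, in the TiO2 comparison, has an adjusted p under 0.05 (filled point).

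petL encodes a small subunit of the cytochrome b6f complex, which carries electrons between the photosystems. It read 8.23, 8.49 and 8.17 log2 in TiO2 seedlings, against 9.59, 9.36 and 8.54 in KCl seedlings. All 3 TiO2 values lay under all 3 KCl values, although KCl replicate 3 came within 0.1 log2 of TiO2 replicate 2. The change was −0.87 ± 0.21 log2 (SE), a level 1.82-fold lower, with a 95% interval of −1.32 to −0.41 and an adjusted p of 0.0157. Over 20 alternative settings the change stayed between −1.18 and −0.65, with adjusted p between 0.000196 and 0.079. It no longer passed when KCl replicate 1 was left out (adjusted p = 0.079), when KCl replicate 2 was (0.0683), when TiO2 replicate 3 was (0.0594) and when the other 6 arrays were left out of the fit (0.0606).

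None of the other 5 genes of cytochrome b6f passed the test, and their estimates lay on both sides of 0. petD, which encodes subunit IV of the complex, read 5.86, 5.82 and 5.57 log2 in TiO2 seedlings and 5.08, 4.84 and 5.62 in KCl seedlings. Its change of 0.57 ± 0.18 had an adjusted p of 0.051, and KCl replicate 3, high in this gene, overlapped the TiO2 values. petG, the gene beside petL and another small subunit, read 3.51, 3.32 and 4.18 in TiO2 seedlings and 3.60, 4.40 and 5.07 in KCl seedlings, near the low end of the scale (−0.68 ± 0.27, adjusted p = 0.128). petB, which encodes cytochrome b6, petA, which encodes cytochrome f, and the small subunit gene petN had changes of 0.26, −0.14 and 0.00 log2. Leaving out single arrays put the median of the complex between −0.23 and 0.23. These 5 genes were chosen for description after their values were seen.

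The ATP synthase makes ATP from the proton gradient across the thylakoid membrane, and its 6 chloroplast genes had the lowest median of the complexes with several genes (−0.36 log2). Estimates of 5 of the 6 lay below 0, and none passed the test. atpB, the beta subunit gene, read 12.57, 12.70 and 10.82 log2 in TiO2 seedlings and 13.37, 13.16 and 12.10 in KCl seedlings. TiO2 replicate 3 was the lowest of the 6 arrays by more than 1 log2, and KCl replicate 3 lay below both other TiO2 arrays. The change was −0.84 ± 0.38 log2 (adjusted p = 0.195), and it ranged from −1.23 to −0.24 when single arrays were left out. The neighbouring atpE, the epsilon subunit gene, had −0.52 ± 0.23 (adjusted p = 0.18), while atpI, atpH, atpF and atpA had 0.04, −0.16, −0.36 and −0.35. The median of the 6 genes ran between −0.74 and −0.13 without single arrays.

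Photosystem II splits water and passes its electrons to plastoquinone. Of its 15 genes, 13 had estimates below 0, none passed the test, and the range was narrow, at −0.34 to 0.08 log2. psbE, an apoprotein gene of the cytochrome bound to this photosystem, had the largest estimate. It read 10.94, 10.89 and 10.49 in TiO2 seedlings and 11.51, 11.67 and 10.15 in KCl seedlings, where KCl replicate 3 was the lowest of all 6 arrays (−0.34 ± 0.28, adjusted p = 0.55). psbA and psbD, the genes of the reaction centre proteins, had −0.19 and −0.05, and psbB and psbC, the genes of the core antenna proteins, −0.15 and −0.08. psbN, whose product serves in assembly of the complex, had −0.17. Without single arrays the median of the 15 genes ran between −0.41 and 0.04.

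Photosystem I passes electrons on to ferredoxin. The estimates of its 5 genes ran between −0.28 and 0.23 log2, and none passed the test. psaI, a small subunit gene, read 9.83, 9.70 and 9.19 in TiO2 seedlings and 10.70, 10.28 and 8.57 in KCl seedlings, so that KCl arrays were both the highest and the lowest (−0.28 ± 0.39, adjusted p = 0.764). psaA and psaB, the core apoprotein genes, had 0.09 and 0.03. psaC, the gene of the iron-sulfur subunit, and the small subunit gene psaJ each had 0.23. Leaving out single arrays put the median between −0.44 and 0.44.

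The NDH complex carries cyclic electron flow around photosystem I. Of its 10 genes, 7 had estimates above 0 and 3 below, and none passed the test. ndhJ had the largest estimate, with 7.53, 7.57 and 6.86 log2 in TiO2 seedlings and 8.58, 8.03 and 7.14 in KCl seedlings (−0.60 ± 0.27, adjusted p = 0.196). KCl replicate 3 again overlapped the TiO2 arrays, while the other KCl arrays lay above all of them. Its neighbour ndhK had −0.53 ± 0.32 and ndhC, of the same operon, 0.08 ± 0.13. ndhF had non-overlapping groups, at 3.33, 3.40 and 3.50 against 3.31, 2.89 and 3.31, but close to the low end of the scale (0.24 ± 0.12, adjusted p = 0.263). The median of the 10 genes ran between −0.31 and 0.27 without single arrays.

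rbcL, the large subunit of the carbon-fixing enzyme Rubisco, read 12.10, 12.31 and 11.86 log2 in TiO2 seedlings and 12.18, 12.02 and 10.90 in KCl seedlings. KCl replicate 3 was about 1 log2 below the other 5 arrays (0.39 ± 0.25, adjusted p = 0.401). Without that array the estimate was −0.01 log2.

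The 4 polymerase genes all had estimates above 0, and none passed the test. rpoC1 read 9.19, 9.40 and 8.39 log2 in TiO2 seedlings and 9.24, 8.89 and 7.45 in KCl seedlings (0.47 ± 0.35, adjusted p = 0.493). rpoA, the alpha subunit gene, read 11.69, 11.84 and 11.54 in TiO2 seedlings and 11.42, 11.37 and 11.14 in KCl seedlings, without overlap. Its change of 0.38 ± 0.12 had an adjusted p of 0.0517, and it was chosen after its values were seen. The beta and beta'' subunit genes rpoB and rpoC2 had 0.05 and 0.27. Without KCl replicate 3 the median of the 4 genes was −0.06 log2, against 0.32 with it.

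Among the alternatives tried, the number of called chloroplast transcripts was highest without KCl replicate 3. Without that array, 11 of the 47 genes passed the test (23.4%, against 11.2% of all probe sets). Of these, 10 were lower in TiO2 seedlings, where 6.55% of all probe sets were called lower. They were petL (−1.18 log2), psaI (−0.92), the photosystem II genes psbE (−0.82), psbF (−0.54) and psbL (−0.41), the ATP synthase genes atpB (−1.23) and atpF (−0.87), and the NDH genes ndhE (−0.98), ndhJ (−0.98) and ndhK (−0.95). petD was the gene called higher (0.79), where 4.66% of all probe sets were. The median of the 47 estimates was then −0.41 log2, and 43 of them were below 0, all except petD, ndhF, rpoA and ndhD. KCl replicate 3 was the lowest KCl array in 42 of the 47 genes, so leaving it out raises the KCl mean in them. The median SE was then 0.201 log2, against 0.268 with all arrays. The added calls of lower genes thus follow in part from the choice of array, and their count is no separate test.

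Leaving out TiO2 replicate 3 in place of KCl replicate 3 gave another result. Only petG (−0.94 log2, adjusted p = 0.0472) and rpoA (0.45, adjusted p = 0.0417) then passed, and the median of the 47 genes was 0.12. Without both of these arrays, 8 genes passed (17.0%, against 9.31% of all probe sets). psbK, psbI, psbE, ndhJ, ndhE, atpB and petL were lower, at −0.64, −0.59, −0.67, −0.75, −0.82, −0.63 and −1.12 log2, and petD was higher at 0.88, where 5.66% of all probe sets were called lower and 3.65% higher. The median of the 47 genes was −0.22, with 37 below 0, and each group then rested on 2 arrays. The fits without both arrays and the naming of these genes were chosen after the values were seen.

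**Figure D3:**
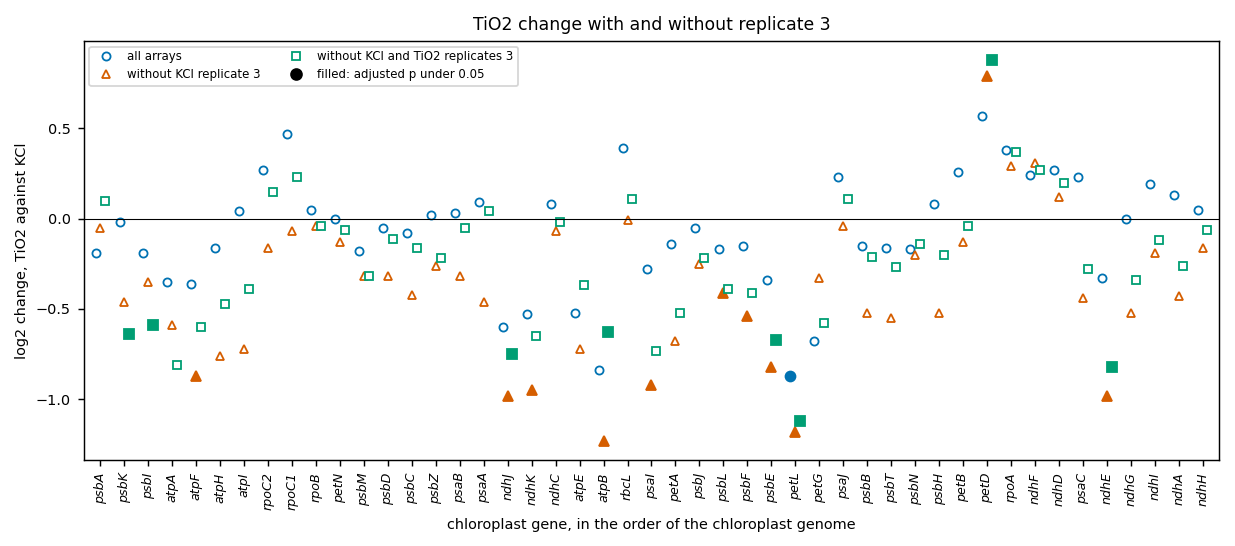
Log2 change in TiO2 against KCl seedlings for each chloroplast transcript, with all arrays (circles), without KCl replicate 3 (triangles) and without replicate 3 of both groups (squares). Genes run in the order of the chloroplast genome, and filled symbols have an adjusted p under 0.05: 1, 11 and 8 of the 47 genes.

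In some operons neighbouring genes had estimates of the same sign, in others of both signs. This is a description of the TiO2 comparison with no test. All 4 genes of the psbE operon lay between −0.34 and −0.05 log2, and both of the atpB operon at −0.84 and −0.52. The 3 of the rpoB operon lay between 0.05 and 0.47. The neighbours petL and petG had −0.87 and −0.68, while psaJ, the next measured gene, had 0.23. The psbB operon, which mixes photosystem II and cytochrome b6f genes, spread from −0.16 to 0.57, with petD at the upper end. In the ndhH operon, 1 of 7 genes was below 0, and the range was −0.33 to 0.27. The psbD, atpI and ndhC operons also had both signs, at −0.08 to 0.02, −0.36 to 0.04 and −0.60 to 0.08. Both genes of the psbK operon were below 0 (−0.19 and −0.02) and both of the psaA operon above 0 (0.03 and 0.09). Genes of an operon share RNA and are not independent.

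In CeO2 seedlings, none of the 47 chloroplast transcripts passed the test in limma, where 2.42% of all probe sets did. At an unadjusted p under 0.05 there was 1 gene (2.13%, against 9.80% of all probe sets), ndhF, whose adjusted p of 0.508 was the lowest of the 47. The median estimate was −0.04 log2, against −0.01 for all probe sets, with 17 above and 30 below 0. The 95% intervals were as wide as for TiO2 because the model shares 1 spread over the 4 groups. The median standard deviation within groups was 0.232 log2 in CeO2 and water arrays and 0.539 in TiO2 and KCl arrays. For these genes the intervals thus tend to be too wide for CeO2 and too narrow for TiO2. The CeO2 and water values did not overlap in 1 gene, which was lower (2.13%, against 16.8% of all probe sets in either direction and 8.54% lower).

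That gene was petN, a small subunit of cytochrome b6f, with 5.64, 6.04 and 5.91 log2 in CeO2 seedlings and 6.06, 6.37 and 6.07 in water seedlings. The CeO2 values all lay lower, but by as little as 0.02 log2 (−0.31 ± 0.16, adjusted p = 0.609). petL, the gene that fell in TiO2 seedlings, read 7.28, 7.59 and 7.99 in CeO2 seedlings and 7.28, 7.45 and 7.56 in water seedlings. Its change was 0.19 ± 0.21, with a 95% interval of −0.26 to 0.65.

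The ATP synthase genes had the narrowest range of estimates in CeO2 seedlings among the complexes with several genes, at −0.09 to 0.05 log2. atpH, the gene of the ring-forming c subunit, had the largest of them. It read 7.13, 7.66 and 7.17 in CeO2 seedlings and 7.09, 7.59 and 7.56 in water seedlings (−0.09 ± 0.38). Its 95% interval was −0.89 to 0.71.

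The polymerase genes all had estimates below 0 in CeO2 seedlings, with a median of −0.24 log2. rpoC1 read 6.73, 7.26 and 6.59 in CeO2 seedlings and 7.54, 7.46 and 7.13 in water seedlings, with CeO2 replicate 2 between the water values (−0.51 ± 0.35, adjusted p = 0.757). rpoC2 had −0.39, rpoB −0.09 and rpoA −0.08. Without single arrays, the median stayed between −0.40 and −0.12.

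The photosystem medians were 0.01 log2 for photosystem I and −0.03 for photosystem II, with no gene called. psaI read 6.69, 7.83 and 6.94 in CeO2 seedlings and 7.47, 7.50 and 7.30 in water seedlings, so that CeO2 arrays were both highest and lowest (−0.27 ± 0.39). psbB, the core antenna gene, read 8.02, 8.68 and 8.19 in CeO2 seedlings and 8.72, 8.54 and 8.54 in water seedlings (−0.31 ± 0.28, adjusted p = 0.868). The groups overlapped in both genes.

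In the NDH complex, with a median of −0.10 log2, ndhA read 9.92, 9.89 and 9.33 in CeO2 seedlings and 8.94, 9.81 and 9.17 in water seedlings (0.41 ± 0.35, adjusted p = 0.845). ndhF, near the low end of the scale, read 3.29, 3.07 and 3.19 against 3.22, 3.61 and 3.53 (−0.27 ± 0.12). rbcL read 9.71, 10.39 and 10.23 in CeO2 seedlings and 10.13, 10.22 and 10.13 in water seedlings (−0.05 ± 0.25, adjusted p = 0.992), and CeO2 replicates lay on both sides of the water values.

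The effects of both particles were compared directly as the CeO2 effect minus the TiO2 effect. petL was the 1 gene of 47 past the threshold (2.13%, against 8.06% of all probe sets). Its difference was 1.06 ± 0.30 log2 (adjusted p = 0.042), as it fell in TiO2 seedlings and had an estimate above 0 in CeO2 seedlings. Over 19 alternative settings the difference lay between 0.84 and 1.37, with adjusted p between 0.000746 and 0.122, and it missed the threshold without any single array of the water group, without KCl replicate 1 or 2, without TiO2 replicate 1 or 3, without CeO2 replicate 2 or 3 and with a robust, intensity-dependent prior. At an unadjusted p under 0.05, 4 genes passed (8.51%, against 19.7% of all probe sets).

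The other genes with the largest difference in their complex did not pass. They were ndhF (−0.51 ± 0.18, adjusted p = 0.0969), rpoC1 (−0.98 ± 0.49, 0.294), atpB (0.84 ± 0.54, 0.452), rbcL (−0.44 ± 0.35, 0.571), psbM (0.29 ± 0.18, 0.431) and psaC (−0.22 ± 0.56, 0.899). psbM, a small subunit gene of photosystem II, was among the steadiest, with 12.22, 12.11 and 12.56 log2 in CeO2 seedlings, 13.39, 13.47 and 13.43 in TiO2 seedlings, 12.26, 12.22 and 12.10 in water seedlings and 13.84, 13.66 and 13.34 in KCl seedlings. psaC read 5.07, 5.68 and 5.46 in CeO2 seedlings, 7.96, 7.95 and 7.51 in TiO2 seedlings, 4.89, 5.84 and 5.44 in water seedlings and 8.43, 8.05 and 6.24 in KCl seedlings. In psaC the KCl arrays alone spanned more than 2 log2.

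Replicate arrays differed widely in most of these transcripts. Their median standard deviation (SD) within groups was 0.441 log2, against 0.130 over all probe sets, at the 99.7th percentile. Of the 47 genes, 41 lay above the 95th percentile of all probe sets (0.232 log2). The exceptions were rpoB (0.11), rpoA (0.16), ndhF (0.17), psbM (0.18), ndhC (0.18) and psbJ (0.22). At the other end stood atpI (0.75), psbH (0.69) and psaA (0.67).

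**Figure D4:**
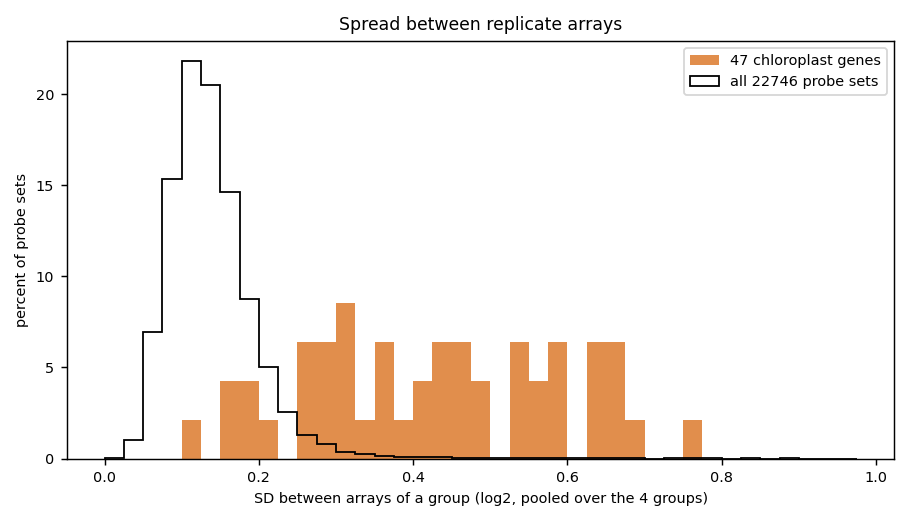
Distribution of the standard deviation between arrays of a group (log2, pooled over the 4 groups) for the 47 chloroplast transcripts (filled) and for all 22746 probe sets (line), in percent of probe sets. The chloroplast transcripts have a median of 0.441 log2, against 0.130 for all probe sets.

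The spread was larger in the TiO2 and KCl arrays, where the median SD of the 47 genes was 0.539 log2, than in the CeO2 and water arrays, at 0.232 (0.131 and 0.114 over all probe sets). The genes moved together from array to array, since 1 array was often highest or lowest in most of them. KCl replicate 1 was the highest of its group in 38 genes (80.9%, against 25.2% of all probe sets), CeO2 replicate 2 in 36 (76.6%, against 40.5%) and water replicate 2 in 33 (70.2%, against 29.5%). In CeO2 replicate 1, 32 genes were lowest of the group (68.1%, against 37.2%), and in water replicate 1, 30 genes (63.8%, against 37.3%).

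In KCl replicate 3 the shift reached every complex. The median deviation from the KCl mean was −1.11 log2 for photosystem I, −0.90 for the ATP synthase, −0.80 for rbcL, −0.77 for NDH, −0.57 for photosystem II, −0.52 for the polymerase and −0.45 for cytochrome b6f. The value against the other KCl arrays ran from −2.26 in atpI to 1.07 in petG. The genes in which this array was not the lowest were psbA, petG, psbN, petD and ndhF.

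**Figure D5:**
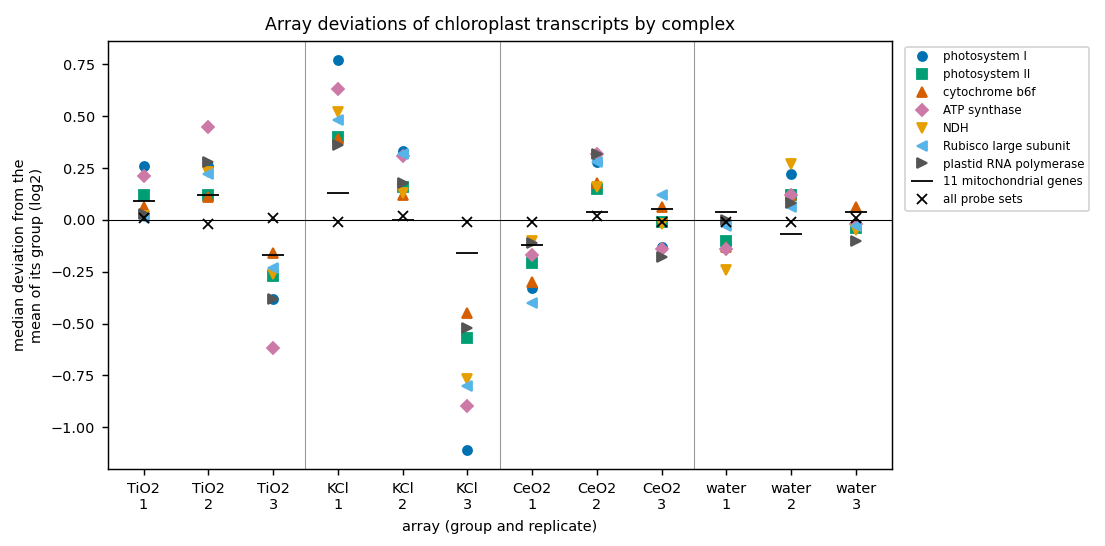
Median deviation of the genes of each complex from the mean of their group, in log2, for each of the 12 arrays, with 11 mitochondrial genes (bars) and all probe sets (crosses). In KCl replicate 3 the complexes lie between −1.11 and −0.45, the mitochondrial genes at −0.16 and all probe sets at −0.01.

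This shift was concentrated in chloroplast transcripts by count. Of all probe sets, 64 (0.281%) were at least 1 log2 lower in KCl replicate 3 than in the other KCl arrays, and 26 of the 47 genes (55.3%) were among them. A further 13 were other chloroplast genes, so that 39 of the 64 came from the 69 chloroplast probe sets of 1 gene. The lowest of all probe sets was cemA (−2.27 log2), a chloroplast envelope membrane protein gene. In TiO2 replicate 3, 15 probe sets were as much lower, of which 8 were chloroplast genes and 3 among the 47, with ycf3 (−1.93) the lowest.

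Genes of other compartments are given beside this. The 11 mitochondrial genes, matched by gene symbol, had a median of −0.24 log2 against the other KCl arrays, with a lowest value of −1.09. Of the 11, 9 were lowest in KCl replicate 3. Of the 9 measured nuclear subunit genes, 6 were higher in that array, namely NDHL, NDHN and NDHS by 0.48, 0.58 and 0.51, PSAE1 and PSBY by 0.36 and 0.24, and PSBW by 0.04. PSAN, PETM and ATPC1 were lower there, at −0.21, −0.35 and −0.07. LHCB4.1 differed by 0.12. The root marker genes EXPA7, EXPA18 and PRX44 differed by 0.27, 0.14 and −0.07, and their part in the result was not tested.

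Between the sets of arrays, 41 of the 47 genes (87.2%) were higher on average in the TiO2 and KCl arrays than in the CeO2 and water arrays, against 51.5% of all probe sets. The median difference was 1.21 log2, against 0.01. The arrays did not overlap in 24 genes that were higher (16.0% of all probe sets) and 2 that were lower (19.2% of all probe sets). Liquid, particle and set of arrays cannot be told apart here, and the sets may have been normalized separately, so that no test was made. petG ran the other way, with a difference of −3.68 log2 (TiO2 and KCl arrays minus CeO2 and water arrays), at 7.70, 7.73 and 7.81 in CeO2 seedlings, 3.51, 3.32 and 4.18 in TiO2 seedlings, 7.78, 7.70 and 7.44 in water seedlings and 3.60, 4.40 and 5.07 in KCl seedlings. atpA also ran the other way (−1.55 log2), as did psbI, psbA, psbK and ndhF by smaller amounts.

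The remaining chloroplast genes were read beside the 47. The 22 other chloroplast probe sets of 1 gene had a median SD of 0.441 log2 and lay a median of 1.14 log2 lower in KCl replicate 3. Of 9 further protein genes of the chloroplast, 7 were measured, and none passed the test in either comparison (medians 0.04 log2 in TiO2 and −0.40 in CeO2). Of 21 ribosomal protein genes, 15 were measured, and 2 of them rose in TiO2 seedlings, with none lower, where 4.72% of all probe sets were called higher and 5.86% lower. In CeO2 seedlings none of the 15 passed, where 2.42% of all probe sets did.

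Both genes that rose encode proteins of the small ribosomal subunit. rps18 read 9.10, 9.49 and 9.23 log2 in TiO2 seedlings and 9.01, 8.75 and 8.38 in KCl seedlings, without overlap (0.56 ± 0.14, adjusted p = 0.0193). rps3 read 10.31, 10.76 and 10.45 in TiO2 seedlings and 10.17, 9.95 and 9.58 in KCl seedlings, also without overlap (0.61 ± 0.17, adjusted p = 0.0333). Without KCl replicate 3, their adjusted p-values were 0.0658 and 0.113, and without TiO2 replicate 2 they were 0.0941 and 0.143. rps3 also missed the threshold without KCl replicate 2 (0.0688) and without TiO2 replicate 3 (0.0658). In a fit of the compared arrays alone, the adjusted p-values were 0.0805 for rps18 and 0.0634 for rps3. Without replicate 3 of both groups they were 0.0951 and 0.153. Over 20 alternative settings they ran from 0.00531 to 0.0951 for rps18 and from 0.00695 to 0.153 for rps3.

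Few of the nuclear genes that serve the same complexes were measured by a probe set of their own. Of 12 listed subunits of photosystem I, 2 were measured, of 10 of photosystem II 2, of 5 of cytochrome b6f and the ATP synthase 2, and of 10 of NDH 3. PSAE1, a subunit on the stromal side of photosystem I, fell in TiO2 seedlings. It read 12.81, 12.67 and 12.88 log2 there and 13.00, 13.02 and 13.37 in KCl seedlings (−0.34 ± 0.10, adjusted p = 0.0486). NDHS, the ferredoxin-binding subunit of NDH, also fell, with 10.69, 10.45 and 10.53 in TiO2 seedlings and 10.94, 10.71 and 11.33 in KCl seedlings (−0.43 ± 0.13, adjusted p = 0.0376). KCl replicate 3 was the highest array in both, and without it the adjusted p-values were 0.173 and 0.127. Over 20 alternative settings they ran from 0.0206 to 0.173 for PSAE1 and from 0.00783 to 0.219 for NDHS. The call was lost in 15 of these 20 settings for PSAE1 and in 10 for NDHS, also in a fit of the compared arrays alone (0.144 and 0.139). No other measured gene of these lists passed in either comparison.

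Of 8 nuclear sigma factors and phage-type polymerases, 1 was measured, RPOTmp, with 0.12 ± 0.10 log2 in TiO2 and −0.03 ± 0.10 in CeO2. None of the 12 listed proteins associated with the plastid polymerase and none of the 4 Rubisco small subunit genes had a probe set of its own. Of 10 light-harvesting genes, LHCB4.1 alone was measured, with −0.09 ± 0.08 in TiO2 and 0.03 ± 0.08 in CeO2. These lists thus give little on the nuclear side of the complexes.

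Root marker genes had been listed as a check on tissue composition, with 3 of 12 measured. The others, among them SHR, SCR and CASP1, had no probe set of their own. EXPA7 and EXPA18 are both root hair genes, so the measured markers need not follow the share of root. All 3 measured markers rose in CeO2 seedlings, where 2.42% of all probe sets passed in either direction. EXPA7, a root hair expansin, rose by 0.96 log2 (adjusted p = 0.000352), EXPA18, another, by 1.44 (2.13e-06), and PRX44, a root peroxidase, by 1.26 (6.5e-06). Their summed level was 11.8 to 12.1 log2 in CeO2 arrays and 10.4 to 10.9 in water arrays, beside a median of −0.04 for the 47 chloroplast genes. In TiO2 seedlings PRX44 fell by 0.44 log2 (adjusted p = 0.0267), where 5.86% of all probe sets were called lower. EXPA7 and EXPA18 had estimates above 0 there, at 0.34 ± 0.13 and 0.07 ± 0.12 log2, and neither passed the test. The summed level of the markers was 11.1 to 11.3 in TiO2 arrays, against 11.3 to 11.5 in KCl arrays. The lower sum thus does not mean that the markers fell together. PRX44 was not called in TiO2 seedlings without KCl replicate 2 (adjusted p = 0.105), TiO2 replicate 1 (0.0646) or TiO2 replicate 3 (0.109). The part of tissue composition in the chloroplast values was not tested.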

How the data were processed

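Total RNA of 12 seedling samples had been hybridized to Affymetrix Arabidopsis arrays. The log2 values per probe set were made by the authors with RMA, per the submitters' processing notes. Its version, and whether all 12 arrays were normalized together, are not given in the sources used here. All 22746 deposited probe sets were used without a filter. Genes were taken from the platform annotation and a RefSeq gene table; 13513 probe sets had 1 gene and 503 several.

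limma 3.58.1 in R 4.3.3 estimated the changes from a model of 4 group means over 12 arrays with empirical Bayes moderation (8 residual and 7.63 prior degrees of freedom). Tests were two-sided, with Benjamini-Hochberg adjustment of p over all 22746 probe sets and a threshold of 0.05. Errors after a change are SE. The fit was tested on simulated data. The precision is limited by 3 arrays per group.

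Genes named by rule were those past the threshold and, per complex and comparison, the one with the largest estimate. Members and lists were chosen with earlier results of these data known. The mitochondrial genes were chosen after the values were seen. They were matched by gene symbol, without a check that the annotated copy lies on the mitochondrial genome. Alternatives were a replicate block, only the compared arrays, other normalizations, a filter on dim probe sets, an intensity trend with robust prior, and leaving out arrays.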

Additional observations from a re-analysis of the deposited data

Results flagged for a closer look

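Of the 47 chloroplast genes and 36 measured genes of the other lists, 4 had effects that differed between the particles by a test of the difference itself (CeO2 effect minus TiO2 effect, limma), where 8.06% of all probe sets passed. petL differed by 1.06 log2 (adjusted p = 0.042): it fell in TiO2 seedlings and had an estimate of 0.19 in CeO2 seedlings. The chloroplast ribosomal gene rps18 differed by −0.69 (adjusted p = 0.0493), with −0.13 in CeO2 and 0.56 in TiO2 seedlings. Among the root markers, EXPA18 differed by 1.37 (adjusted p = 0.000117), with 1.44 in CeO2 and 0.07 in TiO2 seedlings, and PRX44 by 1.70 (adjusted p = 1.16e-05), with 1.26 and −0.44. Over 19 alternative settings the adjusted p-values ran from 0.000746 to 0.122 for petL, from 0.0133 to 0.133 for rps18, from 2.12e-05 to 0.000626 for EXPA18 and from 4.89e-07 to 8.14e-05 for PRX44. Single arrays were not tested as outliers, and KCl replicate 3 was described without a test.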

How the results depend on the processing

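Of the 47 chloroplast genes, 1 was called in TiO2 against KCl. A percentage in brackets is the share of all probe sets called in the same setting (10.6% here). The count was 0 in a fit of only the compared arrays (6.30%), 3 after a second quantile normalization (10.6%) and 3 after median centring (10.7%). Without the dimmest 30% of probe sets it was 3 of 44 genes tested (15.3%). With a prior that was robust and followed intensity it was 3 (10.6%). Each time the 3 were petL, petD and rpoA. The count ran from 0 to 11 when single arrays were left out, with the 11 without KCl replicate 3 (11.2%). It was 8 without replicate 3 of both groups (9.31%). For the difference of effects the count was 1 (8.06%), and 0 with that prior (7.95%). It was 0 to 4 without single arrays, with the 4 without KCl replicate 3 (9.11%), and 2 without replicate 3 of both groups (8.38%). CeO2 against water gave 0 in every setting, where 1.68% to 3.09% of all probe sets passed. The cause of these changes was not tested. A replicate block gave 3 genes for TiO2 (petL, petD, rpoA), 0 for CeO2 and 1 for the difference. Of all probe sets, 11.2%, 2.47% and 8.42% were called in these fits. A replicate block within each set of arrays, added after the data were seen, gave 7, 0 and 5. There 12.7%, 2.84% and 9.44% of all probe sets were called. The 7 were petL (adjusted p = 0.0019), atpB (0.00215), petG (0.0113), atpE (0.0143) and ndhJ (0.0198), all lower, and rpoA (0.0154) and petD (0.0252), higher. Arrays of the same number correlated in their deviations at 0.114, 0.0464 and 0.274 for TiO2 and KCl and at 0.302, 0.00223 and 0.0569 for CeO2 and water, over all probe sets. Over the 47 genes alone, the TiO2 and KCl arrays of a number correlated at 0.459, 0.476 and 0.535, and the CeO2 and water arrays at −0.017, −0.0661 and 0.265. Not every pair was over 0.1 and not every array correlated best with its own number, so the numbers were not taken as pairs. The median CeO2 change of cytochrome b6f, −0.01, lay between −0.17 and 0.13 without single arrays; the other complex medians moved by less than the SD of their array medians, yet in TiO2 those of photosystem I (−0.44 to 0.44), cytochrome b6f (−0.23 to 0.23), NDH (−0.31 to 0.27), photosystem II (−0.41 to 0.04), the polymerase (−0.06 to 0.52) and rbcL (−0.01 to 0.63) crossed 0. For the genes named by rule, 13 of their values under an alternative came past the threshold, 14 dropped below it, 20 estimates that were called under neither changed sign and 502 kept both.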
